A study of Mus musculus with 9 samples.

Results

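Solute carriers are the membrane proteins, numbered in the Slc families, that move amino acids, sugars, ions, metals, nucleosides and vitamins into and out of cells and organelles without splitting ATP themselves. The 58 solute carrier genes described here were chosen by their level in sorted phagocytes of the mouse peritoneal wall. They are the genes whose symbol starts with Slc and a digit and that reached 5 TPM or more in at least 3 of 9 libraries. TPM, the unit of the files, is the level of a transcript per unit of its length, brought to the same total for each library. Of 374 such symbols among 28764 listed, 61 passed this level, and Slc40a1, Slc11a1 and Slc16a3 were left out of them by name. Slc2a1, Slc2a3 and Slc16a1 would also have been left out but did not pass.

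RNA was sequenced from phagocytes of Cx3cr1gfp/+Ccr2rfp/+ mice, an F1 cross in which 1 copy of each chemokine receptor gene carries a fluorescent reporter. Every population came from mice of this genotype that had fluorescent dextran injected into a vein 1 day earlier and were perfused before the tissue was digested with Liberase, and all cells were CD11b-positive and Ly6G-negative; the age of the animals is not given in the sources used here. Double-negative cells (neither reporter, dextran-positive, negative for surface MHC class II) formed most of that gate and are labelled as sessile resident macrophages. CCR2-RFP cells (red reporter, no green, MHC class II-positive) are labelled as migratory tissue monocytes, and CX3CR1-GFP cells (green reporter, no red, MHC class II-positive), the rarest, as sessile resident macrophages as well. There were 3 libraries per population, from sorts 1, 2A and 2B, and library values below are given in that order. Per the series design these came from 3 mice, each sorted into every population.

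The listed TPM summed to between 278579 and 382828 per library, and read depth is unknown. Ccr2 was 107 ± 10.4 TPM (SD, n = 3) in CCR2-RFP, 2.80 ± 1.60 in double-negative and 5.33 ± 1.22 in CX3CR1-GFP cells, whereas Cx3cr1 averaged 9.02 ± 6.52 TPM in CX3CR1-GFP cells and was listed at 0 in the 6 other libraries. The macrophage markers Adgre1, Csf1r, Cd68 and Lyz2 were all detected in each population. Skeletal muscle markers were the highest of the other cell types. Their 8 genes summed to 428 to 457 TPM in double-negative libraries, to 85.8, 1250 and 91.5 TPM in CCR2-RFP and to 476, 2080 and 319 TPM in CX3CR1-GFP, so 2 sort 2A libraries stood apart. Of 10 macrophage markers, 3 were higher and 5 lower in CCR2-RFP against double-negative cells, among them Lyz2 (higher) and Csf1r (lower). Over all genes tested 14.9% were higher and 9.88% lower. The sum of the 10 markers, most of it Lyz2, was 1860 to 2160 TPM in double-negative, 2500 to 2980 in CCR2-RFP and 1610 to 1930 in CX3CR1-GFP libraries. The 8 B cell markers, of which Igkc was listed at 0 throughout and Ighm made up most, summed to 47.9 to 70.2, 14.2 to 15.2 and 41.9 to 57.2 TPM. The part of these cell types in the values of the members was not tested. In such bulk samples, fewer cells that express a gene and less of its RNA per cell cannot be told apart. Groups below that are said to differ passed limma's moderated test on log2(TPM + 1), with Benjamini-Hochberg adjustment over 10136 genes and a threshold of 0.05, and are called higher or lower. All p-values rest on the spread among the sorted samples within each population, pooled over the populations in the fit and moderated across genes.

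Phagocytes depend on these proteins in several compartments. At the cell surface, heterodimers such as 4F2hc with a light chain exchange amino acids. On endosomes and lysosomes, proton-coupled carriers release the products of digestion, and in mitochondria the Slc25 family exchanges phosphate, nucleotides and metabolites with the cytosol. Sodium-proton exchangers and cation-chloride cotransporters set pH and cell volume, and ZIP and ZnT proteins move zinc.

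The upstream sequence of 4 of the genes is given because among members with a single RefSeq promoter window they had the largest positive and negative differences between CCR2-RFP and double-negative cells. These differences are a description here, since Slc2a6 and Slc5a3 reached the level cut through CCR2-RFP cells alone. Slc2a6 and Slc5a3 were high, and Slc8a1 and Slc18b1 low, in CCR2-RFP cells. The windows are the 250 bases before each gene's start in RefSeq (GRCm38.p6), at chr2:27027999-27028248 on the minus strand for Slc2a6, chr16:92058072-92058321 on the plus strand for Slc5a3, chr17:81738388-81738637 on the minus strand for Slc8a1 and chr10:23796736-23796985 on the plus strand for Slc18b1. Capitals mark a match on either strand to TGCNCNC, a looser pattern than the core of the metal response element. A marked stretch therefore need not be that core.
Slc2a6: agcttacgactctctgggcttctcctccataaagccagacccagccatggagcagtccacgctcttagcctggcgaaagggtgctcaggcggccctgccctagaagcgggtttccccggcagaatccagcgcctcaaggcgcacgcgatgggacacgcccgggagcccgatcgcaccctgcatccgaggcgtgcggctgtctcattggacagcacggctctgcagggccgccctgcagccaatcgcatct
Slc5a3: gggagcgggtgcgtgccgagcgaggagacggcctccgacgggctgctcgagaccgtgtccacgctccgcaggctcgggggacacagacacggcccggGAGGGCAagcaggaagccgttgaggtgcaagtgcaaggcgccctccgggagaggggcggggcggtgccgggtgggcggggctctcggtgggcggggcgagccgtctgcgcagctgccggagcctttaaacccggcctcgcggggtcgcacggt
Slc8a1: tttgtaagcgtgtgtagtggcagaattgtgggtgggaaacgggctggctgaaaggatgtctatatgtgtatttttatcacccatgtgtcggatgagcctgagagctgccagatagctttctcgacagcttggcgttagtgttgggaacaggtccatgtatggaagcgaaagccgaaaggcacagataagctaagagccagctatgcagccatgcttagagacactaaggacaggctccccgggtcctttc
Slc18b1: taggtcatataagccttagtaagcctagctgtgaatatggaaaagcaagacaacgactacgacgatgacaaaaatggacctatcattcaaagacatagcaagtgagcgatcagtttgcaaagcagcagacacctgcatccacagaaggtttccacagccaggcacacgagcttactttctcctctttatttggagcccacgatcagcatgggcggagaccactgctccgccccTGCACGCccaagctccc
RefSeq promoter windows were matched by symbol for 47 of the 58 members. The 250 bases before each start were searched on both strands for 4 motifs, counted separately, so that matches of different motifs may share bases. The pattern TGCNCNC, looser than the metal response element core, was present for 25 of 47 members (53.2%) and for 47.2% of 27025 genes of the table. The antioxidant response element core TGACNNNGC was present for 10 of 47 members (21.3%) against 11.5% of all genes. The E-box TCACGTGA was present for 2 of 47 (4.26%) against 0.907%, and the amino acid response element TGATGNAAT for 0 of 47 against 0.910%. These are matches of letters only. The 27025 genes were not restricted to expressed ones, so their shares are no matched background for the members. Genes with more windows also have more places to match, with 61 windows for the 47 members and 32851 for all genes.

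The most abundant member in each population was Slc25a3, the mitochondrial phosphate carrier. It averaged 58.2 ± 4.93 TPM in double-negative, 88.0 ± 3.80 in CCR2-RFP cells and 57.0 ± 8.49 in CX3CR1-GFP cells. After it came Slc3a2 (the 4F2hc heavy chain), Slc16a7 and the amino acid carriers Slc38a2 and Slc6a6 in double-negative cells. CCR2-RFP cells instead had the ADP/ATP carrier Slc25a5 in the next place, at 55.3 ± 12.4 TPM. In CX3CR1-GFP cells Slc3a2 and Slc16a7 again followed, at 42.4 ± 18.2 and 39.6 ± 22.3 TPM. The SDs of Slc16a7 overlap the means of its neighbours in this order, so its place is not settled by 3 libraries. Summed over the 58 genes, the level reached 661 ± 29.5 TPM in double-negative cells, 619 ± 19 in CCR2-RFP cells and 634 ± 6.83 in CX3CR1-GFP cells, and its library ranges were 635 to 693, 599 to 636 and 626 to 638 TPM.

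**Figure D1:**
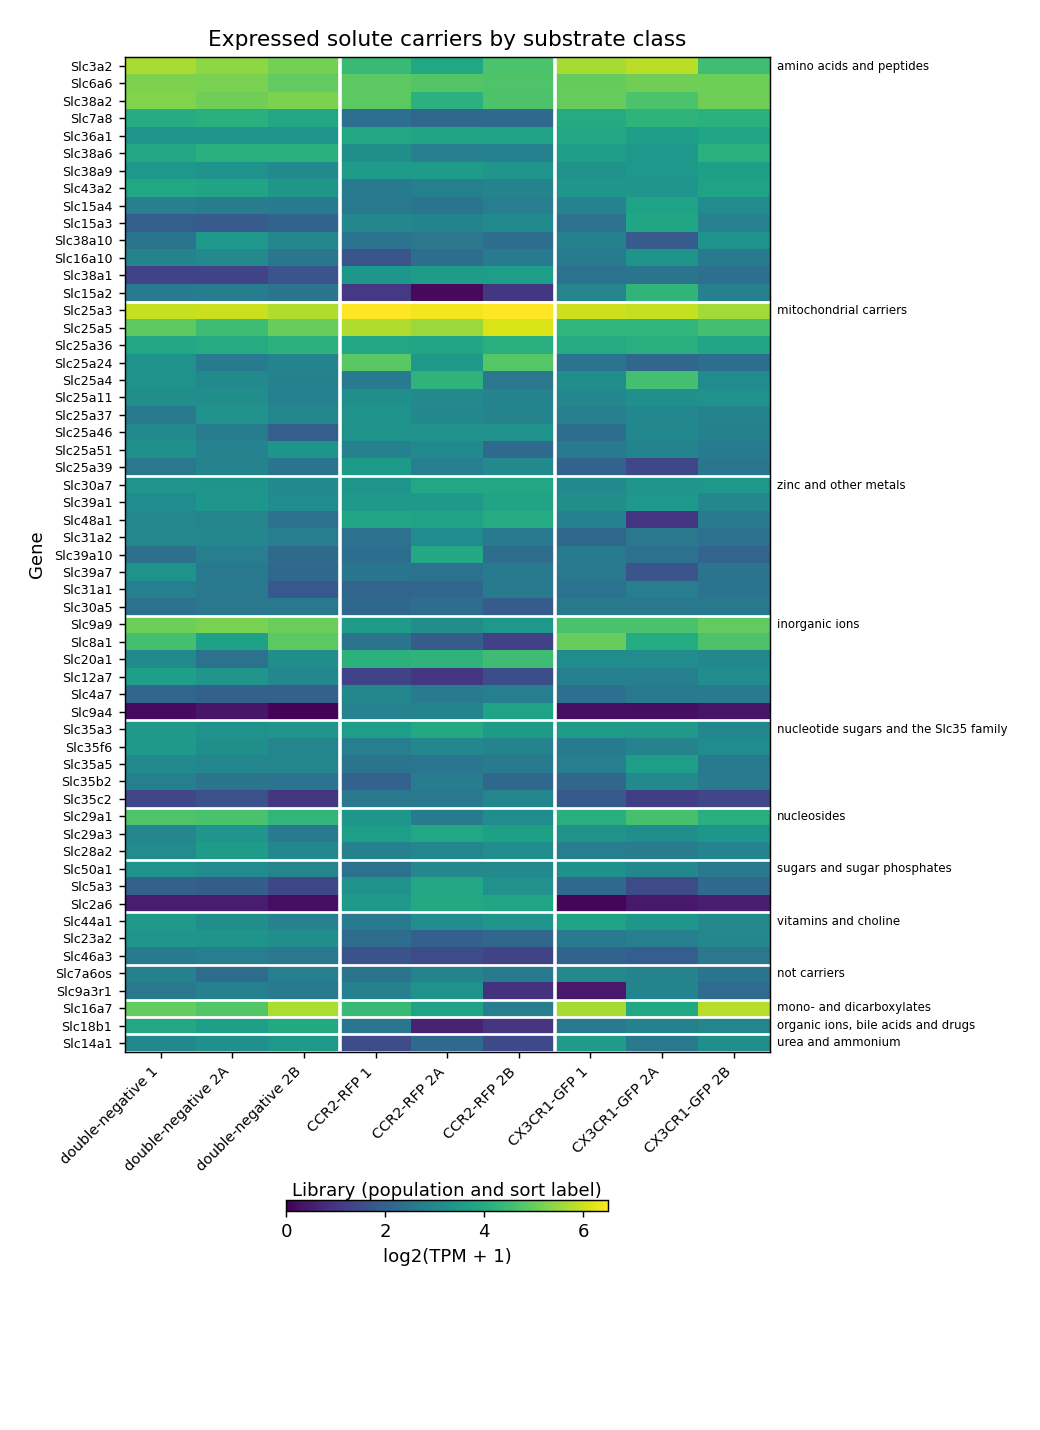
Levels of 57 of the 58 solute carrier genes, as log2(TPM + 1), with 1 row per gene grouped by substrate class and 1 column per library. The CCR2-RFP columns are brighter than the others for Slc25a5, Slc2a6 and Slc38a1 and darker for Slc7a8, Slc9a9 and Slc8a1.

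The level cut itself shaped the list. At 5 TPM or more in all 9 libraries were 23 members, and 35 fell below in at least 1. Slc2a6, Slc35c2, Slc38a1, Slc5a3 and Slc9a4 reached 5 TPM in the 3 CCR2-RFP libraries and in no other, and Slc46a3 in the 3 double-negative libraries and in no other. These 6 genes therefore had to differ between populations, and their levels in that contrast are given as a description with no test. Slc15a3, Slc4a7 and Slc25a39 also reached 5 TPM in all CCR2-RFP libraries, and in too few others to enter without them. Slc15a2 would likewise not have entered without its CX3CR1-GFP libraries. The cut thus favoured calls of these genes as higher in those populations. Just inside the cut, by the third highest library, were Slc35c2 (5.06 TPM), Slc46a3 (5.08), Slc30a5 (5.14), Slc39a7 (5.23) and Slc31a1 (5.31), and just outside were Slc25a17 (4.99), Slc25a45 (4.95), Slc35b1 (4.82), Slc27a1 (4.73) and Slc25a12 (4.67).

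In CCR2-RFP against double-negative cells, 12 of the 58 members were higher, 14 were lower and 32 were not called, that is 44.8% called. Over all genes tested 24.8% were called (14.9% higher, 9.88% lower), and over the 5035 genes that passed the same 5 TPM cut 34.8%. Without the 6 genes named above, 7 of 52 members were higher and 13 lower (38.5%), against 32% of the genes left after the same step, a share near this background. The median difference over the members was -0.15 (log2), against 0.09 over all genes tested and 0.19 over genes at the 5 TPM cut. The split by direction depended on scaling. With TPM rescaled without Siglece, Rn18s, mitochondrial and ribosomal protein genes, 9 members were higher and 18 lower, and with quantile normalization 9 and 16; the median of all genes then moved from 0.09 to -0.07 and to 0.

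**Figure D2:**
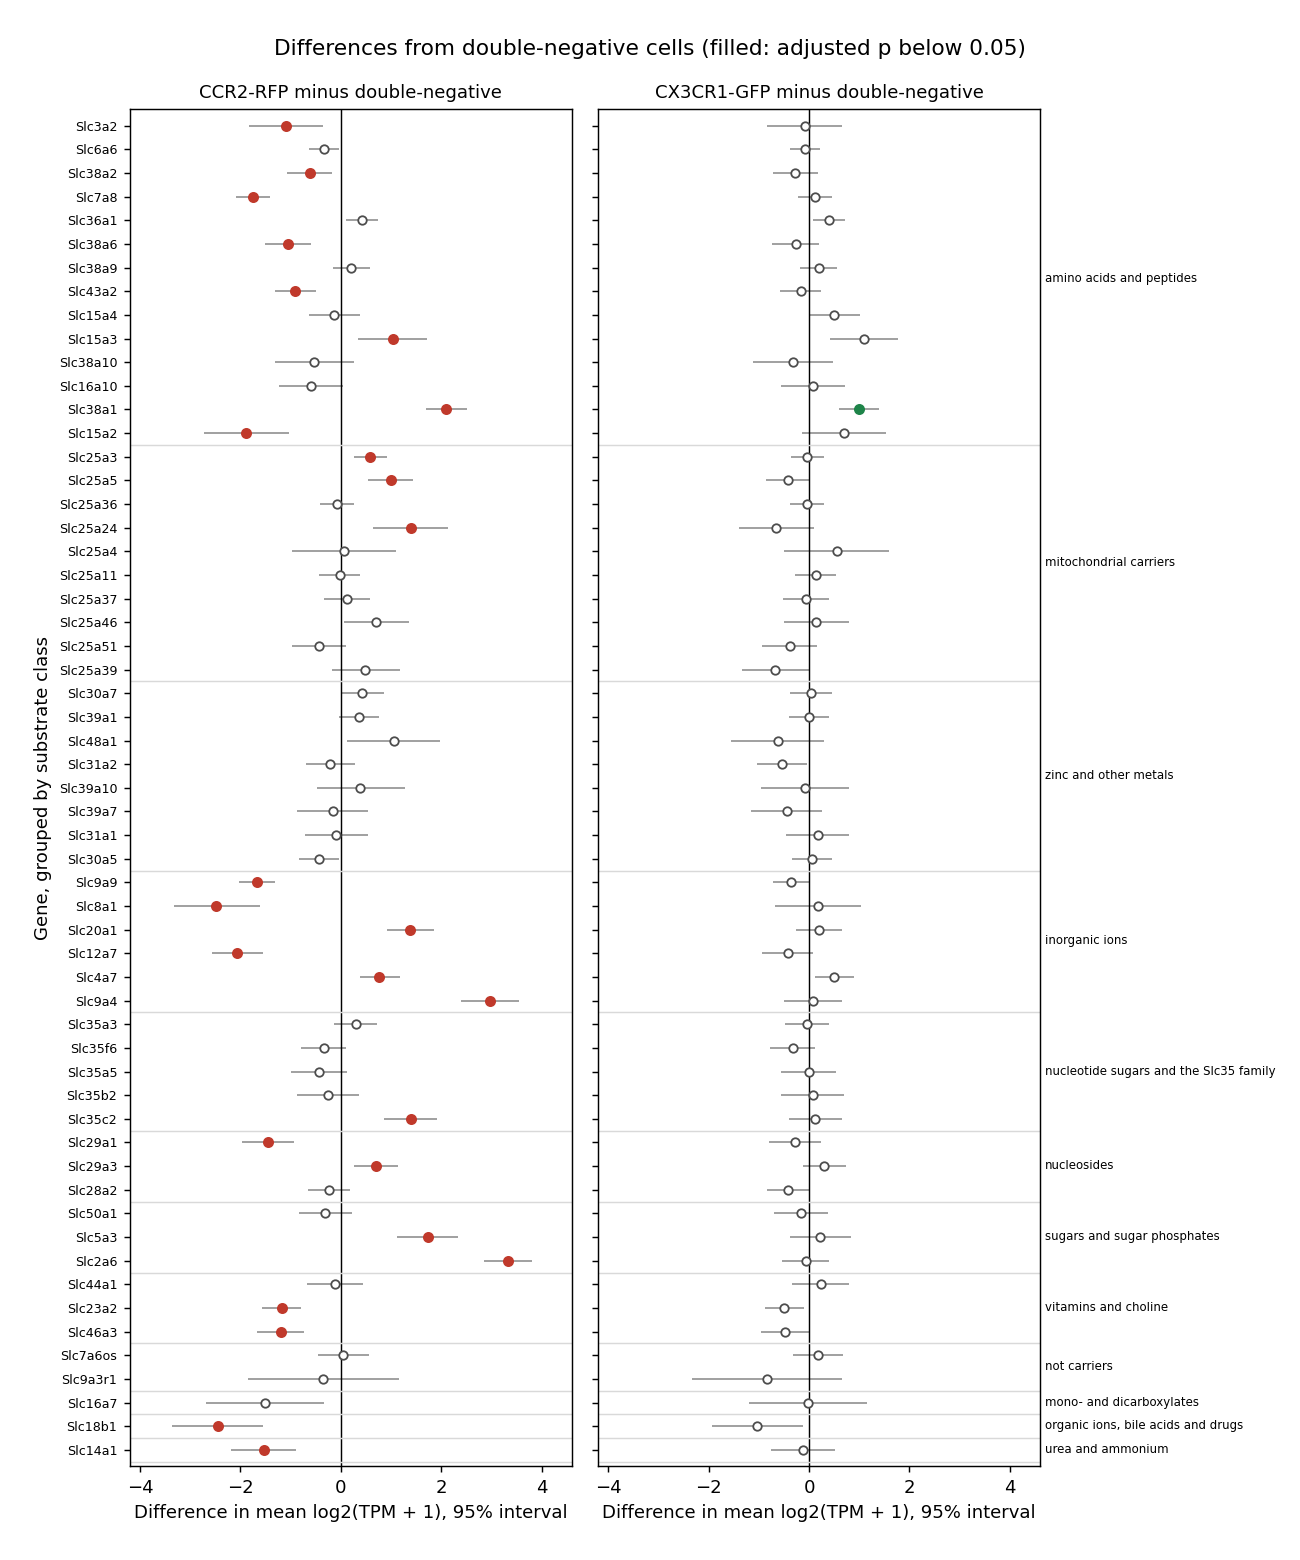
Difference in mean log2(TPM + 1) from double-negative cells for 57 of the 58 members, each with its 95% interval, in CCR2-RFP cells (left) and CX3CR1-GFP cells (right); filled points passed the adjusted test. On the left 26 points are filled, to both sides of 0, and on the right only that of Slc38a1. The filled points on the left include Slc2a6, Slc35c2, Slc38a1, Slc5a3, Slc9a4 and Slc46a3. These reached the level cut through 1 population alone, so there they are a description with no test. Slc15a3 and Slc4a7, also filled, would not have entered without the CCR2-RFP libraries.

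The 14 amino acid and peptide carriers were the largest class. Against double-negative cells, CCR2-RFP cells had 2 of them higher, 6 lower and 6 not called. In this comparison 22.1% of genes at the 5 TPM cut were higher and 12.7% lower. That is the background for this and the class counts that follow. Without Slc38a1, which the level cut admitted through CCR2-RFP cells, 1 of 13 was higher. That 1 was Slc15a3, which would not have entered without the CCR2-RFP libraries either. Slc7a8 (chr14:54722209-54781946 in GENCODE M21 on GRCm38, minus strand) encodes LAT2, a light chain that exchanges neutral amino acids when paired with 4F2hc. Its libraries read 15.3, 16.5 and 13.9 TPM in double-negative, 4.16, 3.50 and 3.80 in CCR2-RFP cells and 15.1, 17.9 and 17.0 in CX3CR1-GFP cells. The CCR2-RFP libraries lay far below the 6 others, which overlapped. Slc7a8 was lower in CCR2-RFP cells than in double-negative cells by a log2 difference of -1.75 (SE 0.15, adjusted p = 2.21e-05). The heavy chain Slc3a2 (chr19:8706882-8723369, minus strand) was at 50.9, 41.5 and 34.6 TPM in double-negative, 20.4, 14.1 and 24.4 in CCR2-RFP cells and 49.3, 56.1 and 21.8 in CX3CR1-GFP cells. It was called lower in CCR2-RFP cells than in double-negative cells (-1.09 ± 0.33 SE, adjusted p = 0.0369), and the libraries of these populations did not overlap. This call was lost without any 1 of the 3 double-negative libraries, without CCR2-RFP 1 or without CCR2-RFP 2A (adjusted p = 0.123, 0.0879, 0.0543, 0.0735 and 0.122). No other light chain of 4F2hc was a member. Slc7a7, the light chain y+LAT1, was the only one tested, at 2.93 to 3.34 TPM in double-negative and 1.22 to 1.86 TPM in CCR2-RFP libraries (log2 difference -0.70, adjusted p = 0.0301), and Slc7a5 was at most 1.01 TPM.

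Among sodium-coupled neutral amino acid carriers, members of the Slc38 family went in both directions. Slc38a1 encodes SNAT1. Its libraries read 1.48, 1.49 and 2.30 TPM in double-negative, 9.66, 11.2 and 11.4 in CCR2-RFP cells and 4.48, 4.67 and 4.20 in CX3CR1-GFP cells. The 3 populations formed 3 separate steps. Between CCR2-RFP and double-negative cells, the contrast through which it entered the list, the difference was 2.10 (log2). Slc38a6 read 13.8, 16.3 and 16.5 TPM in double-negative against 8.52, 6.19 and 6.32 TPM in CCR2-RFP libraries, with no overlap, and was lower (-1.05 ± 0.21 SE, adjusted p = 0.00413). Slc38a2, the SNAT2 gene that amino acid shortage is known to induce, averaged 35.7 ± 2.27 TPM in double-negative and 23.3 ± 5.84 in CCR2-RFP cells. Its difference of -0.62 had an adjusted p of 0.0453, which rose to 0.128, 0.0809 and 0.11 without double-negative 1, 2A and 2B, to 0.140 and 0.0729 without CCR2-RFP 2A and 2B, and to 0.0593 without CX3CR1-GFP 1. Slc43a2, the LAT4 exporter of branched-chain amino acids, fell from 12.2 ± 2.05 to 5.98 ± 0.6 TPM (-0.91 ± 0.18 SE, adjusted p = 0.00446).

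Slc15a2, which encodes the surface di- and tripeptide carrier PEPT2 (chr16:36750177-36784962, minus strand), was at 5.46, 5.80 and 4.63 TPM in double-negative, 1.11, 0.123 and 1.09 in CCR2-RFP cells and 6.74, 18.1 and 6.16 in CX3CR1-GFP cells. All CCR2-RFP libraries were below all others, and all CX3CR1-GFP libraries above all others, with sort 2A far above the rest. It was lower in CCR2-RFP cells than in double-negative cells (-1.88 ± 0.38 SE, adjusted p = 0.0045). Slc15a3, a lysosomal histidine and peptide carrier, instead averaged 2.94 ± 0.280 TPM in double-negative, 7.04 ± 0.425 in CCR2-RFP cells and 8.12 ± 4.73 in CX3CR1-GFP cells. It was called higher in CCR2-RFP cells (1.03 ± 0.30 SE, adjusted p = 0.0316). The call was lost without any 1 of the 6 libraries of that comparison, where adjusted p ran from 0.0652 to 0.0933. It was also lost with quantile normalization, after the rescaling named above, with no filter and with a pseudocount of 5. Slc15a3 would not have entered the list without its CCR2-RFP libraries, which favoured a rise there. Its lysosomal relative Slc15a4 did not pass (5.80 ± 0.364 and 5.24 ± 0.593 TPM, -0.13, 95% interval -0.63 to 0.38). The lysosomal arginine sensor Slc38a9 and the proton-coupled exporter Slc36a1 had differences of 0.21 and 0.42, with adjusted p of 0.422 and 0.057. Slc6a6, the taurine carrier, averaged 34.1 ± 3.56, 26.6 ± 1.38 and 32.1 ± 1.51 TPM in double-negative, CCR2-RFP and CX3CR1-GFP cells. Its CCR2-RFP libraries were below the 6 others, and its difference from double-negative cells (-0.34, adjusted p = 0.0942) was called with quantile normalization and after the rescaling named above (adjusted p = 0.0118 and 0.0151). Summed over the class, the level was 203 ± 15.0, 142 ± 11.9 and 212 ± 18.5 TPM in the same order, and every CCR2-RFP library (129 to 149) was below every double-negative one (186 to 215).

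Of 7 inorganic ion carriers, 3 were higher, 3 lower and 1 not called in CCR2-RFP against double-negative cells. Without Slc9a4, which the level cut admitted through CCR2-RFP cells, 2 of 6 were higher. Of these, Slc4a7 would not have entered without the CCR2-RFP libraries either. Within the sodium-proton exchangers, Slc9a4 and Slc9a9 went opposite ways. Slc9a4 (chr1:40580081-40630725, plus strand) encodes the surface exchanger NHE4 and read 0.139, 0.318 and 0.0471 TPM in double-negative, 6.35, 6.59 and 12.8 in CCR2-RFP cells and 0.206, 0.190 and 0.282 in CX3CR1-GFP libraries. It entered the list through CCR2-RFP cells alone, and its difference there was 2.98 (log2). Slc9a9, an endosomal exchanger, read 32.6, 35.6 and 32.3 TPM in double-negative, 11.2, 8.31 and 10.2 in CCR2-RFP cells and 24.1, 23.9 and 29.8 in CX3CR1-GFP libraries. The 3 populations did not overlap, and it was lower in CCR2-RFP cells than in double-negative cells (-1.67 ± 0.16 SE, adjusted p = 3.46e-05).

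The sodium-calcium exchanger Slc8a1 (NCX1, chr17:81373105-81738377, minus strand) had a difference of -2.48 in that comparison, the most negative of any member with a pseudocount of 1. With a pseudocount of 0.1, Slc18b1 (-3.13) and Slc15a2 (-2.97) were below it (-2.84). Its levels were 22.8, 12.1 and 28.3 TPM in double-negative, 4.69, 2.78 and 1.45 in CCR2-RFP cells and 30.7, 15.0 and 25.0 in CX3CR1-GFP cells. The spread within double-negative and CX3CR1-GFP cells was wide, yet no CCR2-RFP library reached them (SE 0.38, adjusted p = 0.000896). Slc8a1 is also abundant in muscle. The muscle marker sums were 85.8 and 91.5 TPM in CCR2-RFP 1 and 2B against 428 to 457 TPM in double-negative libraries, and 1250 TPM in CCR2-RFP 2A; their part in this difference was not tested. The potassium-chloride cotransporter Slc12a7 (KCC4) read 11.7, 9.54 and 7.28 TPM in double-negative and 1.49, 1.06 and 1.94 in CCR2-RFP libraries, without overlap (-2.07 ± 0.23 SE, adjusted p = 8.74e-05). Slc20a1, the phosphate importer PiT-1, read 7.47, 4.49 and 8.29 TPM in double-negative, 17.3, 17.7 and 21.4 in CCR2-RFP cells and 7.93, 7.80 and 7.24 in CX3CR1-GFP cells. CCR2-RFP libraries stood above all others (1.38 ± 0.21 SE, adjusted p = 0.000781). Slc4a7, a sodium-bicarbonate carrier known to serve phagosome acidification, rose from 3.16 ± 0.257 to 6.14 ± 0.719 TPM (0.77, adjusted p = 0.00864). With all sort 2A libraries left out its adjusted p was 0.0539. The level cut, which Slc4a7 passed only with its CCR2-RFP libraries, favoured this rise.

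**Figure D3:**
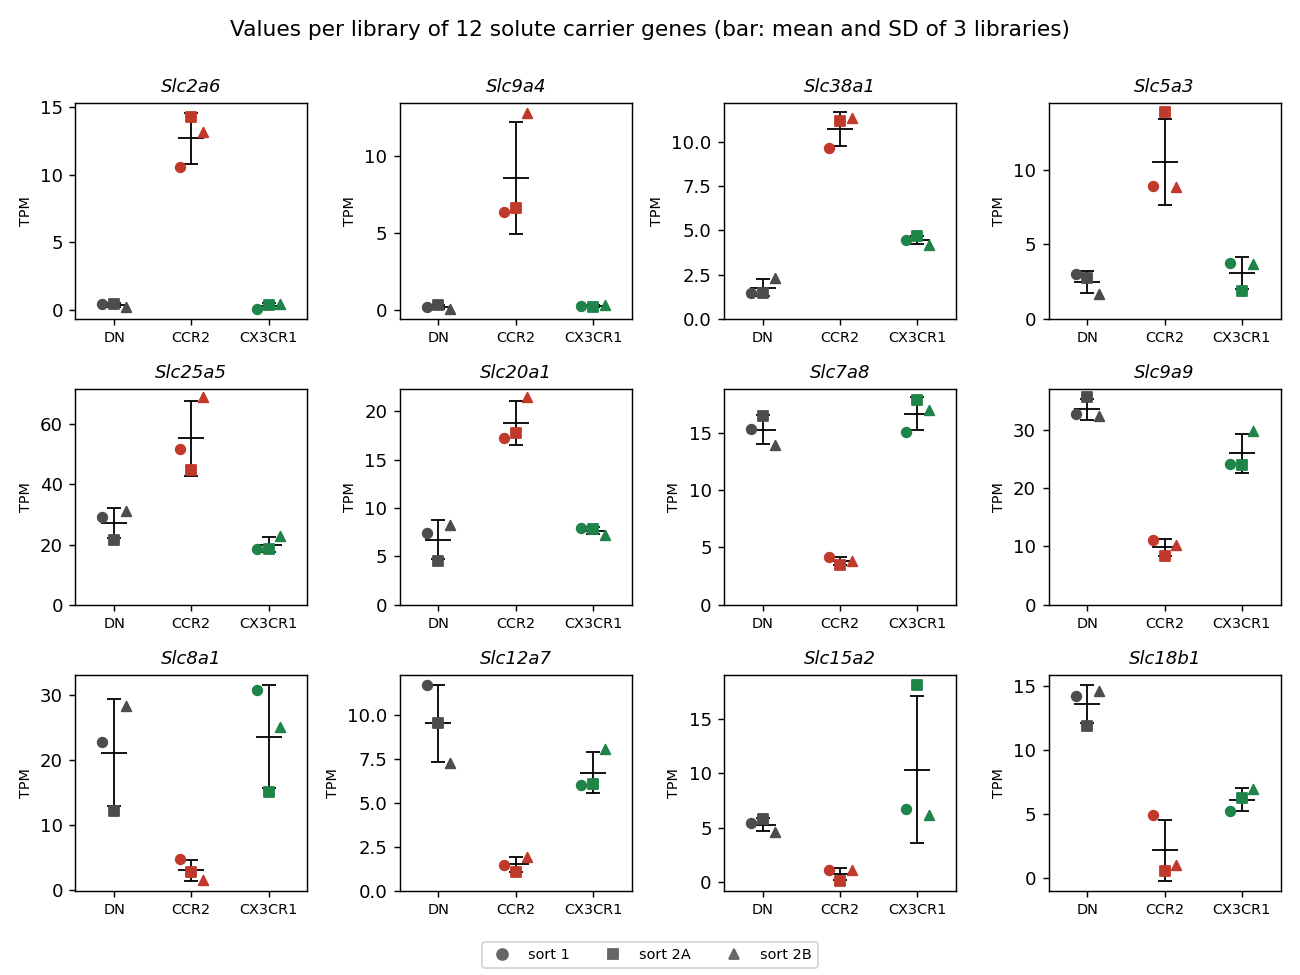
TPM of 12 members in each library, with the mean and SD of 3 libraries, for double-negative (DN), CCR2-RFP (CCR2) and CX3CR1-GFP (CX3CR1) cells; marker shapes give the sort. CCR2-RFP points lie apart from double-negative points in every panel, above them in the first 6 panels and below them in the last 6. For Slc2a6, Slc9a4, Slc38a1 and Slc5a3 the level cut fixed this in advance.

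Of 10 mitochondrial carriers, 3 were higher in CCR2-RFP cells than in double-negative cells, 0 were lower and 7 were not called by limma. Of genes at the 5 TPM cut, 22.1% were higher and 12.7% lower. At an unadjusted p under 0.05 the counts of the class were 4 and 0. Slc25a5 (chrX:36795651-36798807, plus strand) encodes the ADP/ATP carrier ANT2. Its libraries read 29.0, 21.6 and 31.0 TPM in double-negative, 51.9, 44.9 and 69.0 in CCR2-RFP cells and 18.6, 18.4 and 22.8 in CX3CR1-GFP cells. All CCR2-RFP libraries were above the others (0.99 ± 0.20 SE, adjusted p = 0.00428). Slc25a3 read 59.9, 62.1 and 52.6 TPM in double-negative and 90.2, 83.7 and 90.2 in CCR2-RFP libraries (0.59 ± 0.14 SE, adjusted p = 0.0128), but its adjusted p was 0.0733 after the rescaling named above and 0.113 with quantile normalization. Slc25a24, a calcium-regulated carrier of ATP-magnesium and phosphate, was at 9.12, 5.5 and 6.55 TPM in double-negative, 27.8, 10.4 and 26.6 in CCR2-RFP cells and 4.66, 3.44 and 4.14 in CX3CR1-GFP cells. Its rise in CCR2-RFP cells (1.40 ± 0.33 SE, adjusted p = 0.0114) missed the threshold without CCR2-RFP 2B (adjusted p = 0.0508). The class summed to 149 ± 6.18, 227 ± 17.2 and 139 ± 12.4 TPM in double-negative, CCR2-RFP and CX3CR1-GFP cells. That was 22.6%, 36.6% and 21.9% of the summed level of all 58 genes, and Slc25a3 and Slc25a5 made up most of it. Slc25a46, an outer membrane member of the family, read 7.58, 5.80 and 2.89 TPM in double-negative, 9.08, 8.81 and 9.02 in CCR2-RFP cells and 4.11, 7.20 and 6.31 in CX3CR1-GFP cells. Its CCR2-RFP libraries were above the 6 others, and its difference of 0.71 was not called (adjusted p = 0.106), but was without double-negative 1 (0.96, adjusted p = 0.0484). The other members of the class were not called either: the glutathione carrier Slc25a39, the iron importer Slc25a37 (mitoferrin-1), the oxoglutarate carrier Slc25a11, the NAD carrier Slc25a51 and the pyrimidine nucleotide carrier Slc25a36 had differences between -0.43 and 0.49.

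Slc25a4 encodes ANT1, the ADP/ATP carrier isoform of heart and skeletal muscle. It was at 17.8 TPM in CCR2-RFP 2A and 22.7 TPM in CX3CR1-GFP 2A, and at 4.94 to 9.22 TPM in the other 7 libraries. The same 2 libraries had the highest sums of skeletal muscle markers, 1250 and 2080 TPM; the part of muscle RNA in this value was not tested. Slc25a4 was not called in any comparison. Slc25a4 and Slc25a5 are close paralogs, so their split also depends on how shared reads were assigned.

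**Figure D4:**
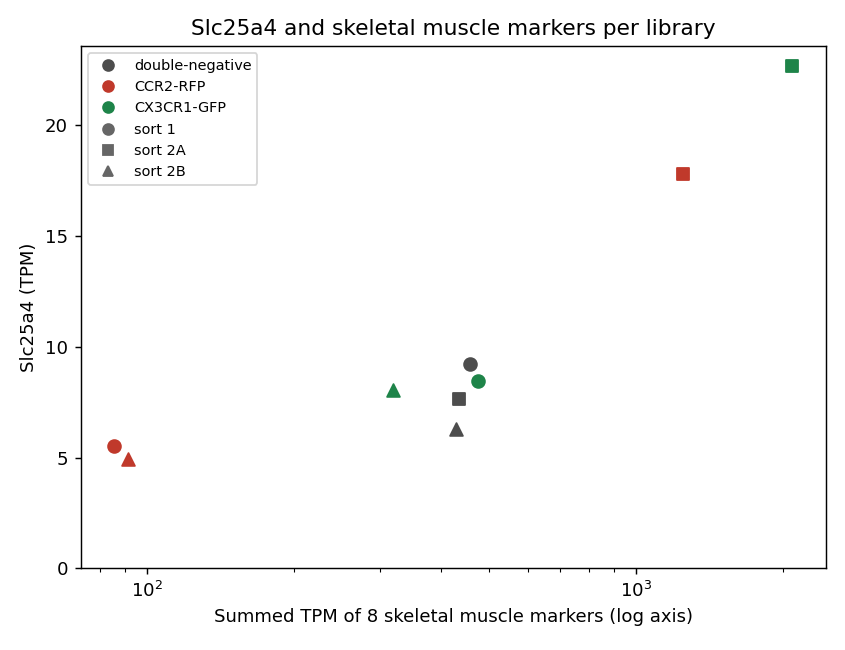
Slc25a4 level (TPM) against the summed TPM of 8 skeletal muscle markers (log axis), 1 point per library, with colour for the population and shape for the sort. The 2 sort 2A libraries with reporter-positive cells lie at 1250 and 2080 TPM of muscle markers and 17.8 and 22.7 TPM of Slc25a4, above the other 7.

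Of 8 carriers of zinc, copper and haem, limma called 0 in CCR2-RFP against double-negative cells, whereas 2 were higher and 1 lower at an unadjusted p under 0.05. Slc48a1, which carries haem out of phagolysosomes (HRG1), was the furthest from 0, at 7.30, 6.83 and 4.38 TPM in double-negative, 13.3, 12.5 and 15.0 in CCR2-RFP cells and 6.21, 1.03 and 5.53 in CX3CR1-GFP cells. Its CCR2-RFP libraries were above the 6 others, with a difference from double-negative cells of 1.05 (95% interval 0.12 to 1.97, adjusted p = 0.0994). Without CX3CR1-GFP 2A, its lowest library, the adjusted p was 0.00368. The zinc exporters Slc30a7 and Slc30a5, which load the secretory pathway, had differences of 0.43 and -0.43 (adjusted p = 0.135 and 0.115). Those of the zinc importers Slc39a1, Slc39a7 and Slc39a10 were 0.36, -0.16 and 0.39, none of them called. The mean of Slc39a10 in CCR2-RFP cells, 7.5 ± 5.92 TPM, rested on 14.3 TPM in sort 2A against 4.11 and 4.05. The copper carriers Slc31a1 and Slc31a2 had differences of -0.09 and -0.21 (adjusted p = 0.854 and 0.556).

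The 3 sugar carriers included the member with the most positive difference in the same comparison at a pseudocount of 1. Slc2a6 (GLUT6, chr2:27021363-27027998, minus strand) is a hexose transporter of intracellular membranes. It read 0.442, 0.420 and 0.201 TPM in double-negative, 10.6, 14.3 and 13.2 in CCR2-RFP cells and 0.0581, 0.370 and 0.465 in CX3CR1-GFP libraries. No library outside CCR2-RFP came near its values there, and the difference was 3.33 on the log2(TPM + 1) scale, which understates the change of genes this low. With a pseudocount of 0.1 the difference was 4.85, below the 5.07 of Slc9a4. Slc5a3, the sodium-coupled myo-inositol carrier (chr16:92058322-92087473, plus strand), was at 3, 2.76 and 1.65 TPM in double-negative, 8.91, 13.9 and 8.85 in CCR2-RFP cells and 3.73, 1.86 and 3.68 in CX3CR1-GFP cells. Again the CCR2-RFP libraries were apart, by 1.73. Both genes reached the level cut through CCR2-RFP cells alone. Slc5a3 shares 159 exon bases (1.46% of its own) with Mrps6 on the same strand, so reads there cannot be told apart. The endomembrane sugar carrier Slc50a1 was not called (-0.31, 95% interval -0.84 to 0.22). The class summed to 10.7 ± 1.96 TPM in double-negative, 29.5 ± 5.66 in CCR2-RFP cells and 10.4 ± 1.78 in CX3CR1-GFP cells.

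Of 3 nucleoside carriers, 1 was higher, 1 lower and 1 not called in CCR2-RFP against double-negative cells. Slc29a1 (ENT1, chr17:45585200-45599606, minus strand), the equilibrative carrier of the cell surface, read 25.3, 24.1 and 18.6 TPM in double-negative and 9.82, 5.49 and 7.96 in CCR2-RFP libraries. There was no overlap, and it was lower (-1.45 ± 0.23 SE, adjusted p = 0.00103). Its lysosomal relative Slc29a3 (ENT3) averaged 7.37 ± 2.03 TPM in double-negative and 12.3 ± 1.30 in CCR2-RFP cells and was called higher (0.70, adjusted p = 0.0253). The adjusted p of Slc29a3 was 0.0724 and 0.0866 without double-negative 1 and 2B, and 0.0842 and 0.0607 without CCR2-RFP 2A and 2B. Its call was also lost with quantile normalization, after the rescaling named above and with no filter. The concentrative carrier Slc28a2 was not called (-0.24, 95% interval -0.66 to 0.18).

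Slc35 is a family that includes carriers of activated sugars and sulfate donors into the Golgi. Of its 5 members here, 4 were not called by limma, and 0 of these 4 passed an unadjusted p of 0.05. The fifth, Slc35c2, was at 1.63, 2.05 and 1.06 TPM in double-negative and 5.13, 5.06 and 7.01 in CCR2-RFP libraries, through which it entered the list, with a difference of 1.39. The UDP-N-acetylglucosamine carrier Slc35a3 and the sulfate donor carrier Slc35b2 had differences of 0.30 and -0.26 (adjusted p = 0.317 and 0.563). Of 3 vitamin and choline carriers, 2 were lower, 1 of them Slc46a3, which the level cut admitted through double-negative cells; without it 1 of 2 was lower. Slc23a2, the vitamin C carrier SVCT2, read 9.62, 9.42 and 8.34 TPM in double-negative, 3.99, 2.98 and 3.47 in CCR2-RFP cells and 5.59, 5.88 and 7.21 in CX3CR1-GFP cells. Its 3 populations did not overlap (-1.18 ± 0.17 SE in CCR2-RFP against double-negative cells, adjusted p = 0.000672). The lysosomal carrier Slc46a3 followed the same order, at 5.49 ± 0.387, 1.84 ± 0.331 and 3.73 ± 1.12 TPM. The choline carrier Slc44a1 was not called (-0.11, 95% interval -0.68 to 0.45).

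Single members stood for 3 further classes. Slc18b1, a vesicular polyamine carrier (chr10:23796986-23827968, plus strand), read 14.2, 11.9 and 14.6 TPM in double-negative, 4.90, 0.571 and 1.01 in CCR2-RFP cells and 5.21, 6.24 and 6.93 in CX3CR1-GFP libraries. Double-negative cells were above all others, and CCR2-RFP cells were lower by -2.45 (SE 0.41, adjusted p = 0.00137). The urea channel Slc14a1 read 7.25, 8.59 and 10.2 TPM in double-negative against 1.86, 3.69 and 1.69 in CCR2-RFP libraries (-1.54 ± 0.29 SE, adjusted p = 0.00294). The monocarboxylate carrier Slc16a7 (MCT2) read 30.4, 26.2 and 51.6 TPM in double-negative, 20.0, 12.4 and 5.91 in CCR2-RFP cells and 49.7, 14 and 55.0 in CX3CR1-GFP libraries. These values spread widely within each population, and its difference of -1.51 missed the threshold (adjusted p = 0.0632). Without CCR2-RFP 1 its adjusted p was 0.0423, and without CX3CR1-GFP 2A 0.0163. Of the 58 symbols, 2 name no carrier: Slc9a3r1 (NHERF1) is a scaffold that binds exchangers, and Slc7a6os lies opposite Slc7a6. Neither was called. Slc9a3r1 swung from 0.938 to 9.23 TPM among CCR2-RFP libraries.

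**Figure D5:**
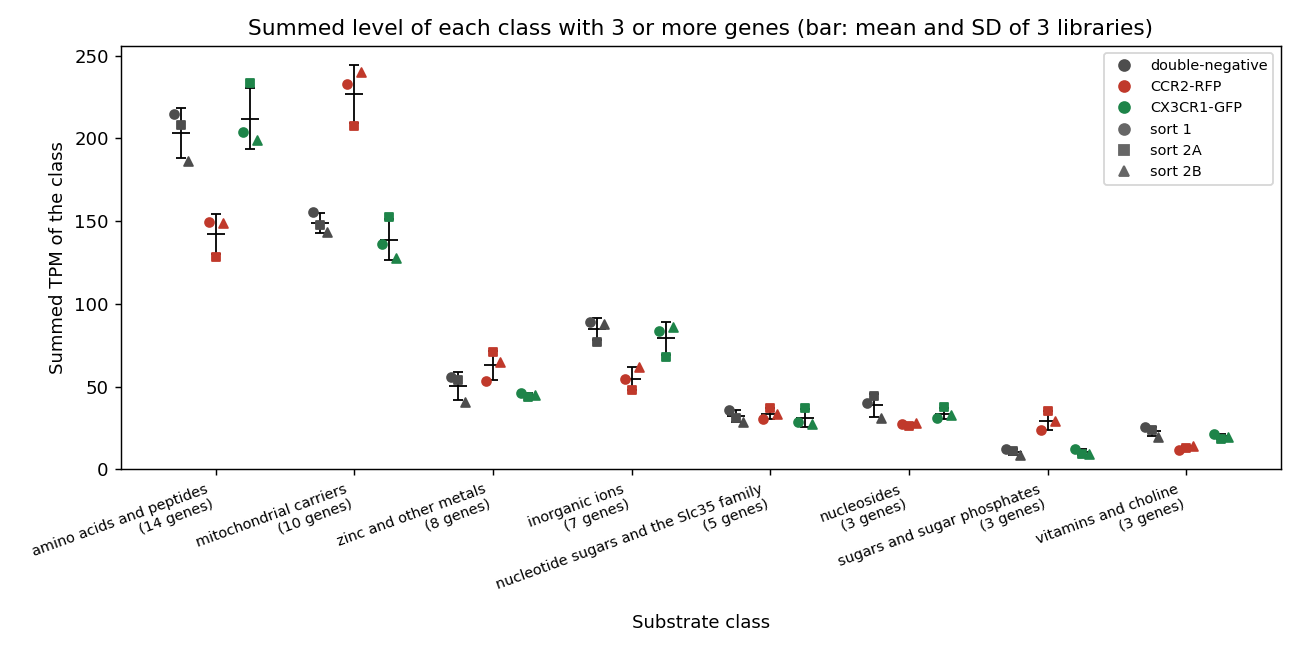
Summed TPM of the substrate classes with 3 or more genes, 1 point per library with the mean and SD of each population. Mitochondrial carriers and sugar carriers are higher in all CCR2-RFP libraries than in the others, and amino acid, ion, nucleoside and vitamin carriers are lower; of the sugar carriers, Slc2a6 and Slc5a3 reached the level cut through CCR2-RFP cells alone.

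Against double-negative cells, CX3CR1-GFP cells had 1 member higher and 0 lower (1.72% of 58). Over all genes tested 2.77% were called (1.16% higher, 1.61% lower), and over genes at the 5 TPM cut 4.35%. At an unadjusted p under 0.05, 4 members were higher and 6 lower. The member called was Slc38a1, with 1.76 ± 0.469 TPM in double-negative and 4.45 ± 0.238 in CX3CR1-GFP cells (0.99 ± 0.18 SE, adjusted p = 0.0181). Its libraries did not overlap, but its adjusted p was 0.0869 and 0.0809 without double-negative 1 and 2A, and 0.0532 and 0.0527 without CX3CR1-GFP 1 and 2A. For 43 of the 58 members the 95% interval of this difference lay within a 2-fold change either way. It did not for Slc15a2 (0.70, -0.15 to 1.54), Slc15a3 (1.09, 0.41 to 1.77, adjusted p = 0.0999) or Slc18b1 (-1.03, -1.94 to -0.13, adjusted p = 0.259), among others. The adjusted p of Slc15a3 was 0.0399 without CX3CR1-GFP 1, and that of Slc18b1 was 0.0306 without CCR2-RFP 1. Narrow intervals around 0 included those of Slc6a6 at -0.08 (-0.38 to 0.22), Slc7a8 at 0.12 (-0.22 to 0.46) and Slc25a3 at -0.04 (-0.36 to 0.29). Other abundant members had wider ones, such as Slc3a2 at -0.09 (-0.83 to 0.65) and Slc16a7 at -0.03 (-1.2 to 1.15).

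In CX3CR1-GFP against CCR2-RFP cells, 13 members were higher, 11 were lower and 34 were not called (41.4% called). The background was 26.3% of all genes tested (8.96% higher, 17.3% lower) and 37.6% of genes at the 5 TPM cut. Without the 6 genes that reached the cut in 1 population, 12 of 52 members were higher and 6 lower (34.6%), against 34.7% of such genes. With the rescaling named above 20 members were higher and 9 lower, with quantile normalization 19 and 9, and with median-of-ratios scaling 16 and 11. The rescaling moved the median of all genes from -0.11 to 0.13. This comparison shares its CCR2-RFP libraries, and the first comparison's double-negative libraries are shared with the second, so their values are set side by side only.

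Higher in CX3CR1-GFP than in CCR2-RFP cells were Slc8a1 (2.65 ± 0.38 SE, adjusted p = 0.000631), Slc15a2 (2.58, adjusted p = 0.000704), Slc7a8 (1.87, adjusted p = 2.03e-05) and Slc12a7 (1.63, adjusted p = 0.000474). Slc9a9, Slc14a1 and Slc29a1 followed at 1.31, 1.42 and 1.17. These 7 were called in CCR2-RFP against double-negative cells too, as lower. Of these, Slc15a2 would not have entered the list without its CX3CR1-GFP libraries. Lower in CX3CR1-GFP cells were Slc25a24 (-2.04, adjusted p = 0.00133), Slc48a1 (-1.67, adjusted p = 0.014), Slc25a5 (-1.41, adjusted p = 0.000532) and Slc20a1 (-1.19, adjusted p = 0.00212). Slc2a6, Slc9a4, Slc5a3, Slc35c2 and Slc38a1, which entered through CCR2-RFP cells, were lower by -3.40, -2.90, -1.51, -1.27 and -1.11. Of genes at the 5 TPM cut, 10.8% were higher and 26.8% lower. Mitochondrial carriers had 0 higher and 4 lower of 10, 2 of which, Slc25a3 and Slc25a39, were not called with quantile normalization (adjusted p = 0.211 and 0.0518) or after the rescaling (0.118 and 0.059). Slc25a39, which carries glutathione, was called here and not against double-negative cells, at 8.16 ± 2.40 TPM in CCR2-RFP cells and 3.23 ± 1.61 in CX3CR1-GFP cells (-1.16, adjusted p = 0.0176). It would not have entered the list without its CCR2-RFP libraries.

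Several of these calls were lost when 1 library was left out. Such fits hold fewer samples, and they called 20.3% to 25.1% of all genes tested in this comparison, against 26.3% with all libraries. Slc3a2 was called at 1.00 (adjusted p = 0.0496) although CX3CR1-GFP 2B, at 21.8 TPM, lay within the CCR2-RFP range, and the call was lost without any 1 library other than CX3CR1-GFP 2B, with adjusted p of 0.0577 to 0.150. With the sort as a block its adjusted p was 0.0545, and that of Slc46a3 (0.71) rose from 0.0311 to 0.0538. Slc46a3 was also lost without double-negative 1 (adjusted p = 0.0502), CCR2-RFP 2A (0.0697) or 2B (0.0996) and CX3CR1-GFP 1 (0.0506) or 2B (0.0973). Slc18b1 (1.42, adjusted p = 0.0269) was lost without CCR2-RFP 2A (0.0852) or 2B (0.0955) and without CX3CR1-GFP 2A (0.0594) or 2B (0.0718). Slc38a6 (0.78, adjusted p = 0.0202) was lost without CCR2-RFP 2A (0.0646) or 2B (0.0682) and without CX3CR1-GFP 2B (0.0608). Slc23a2 (0.69, adjusted p = 0.0151) was lost without CCR2-RFP 2A (0.0538) or CX3CR1-GFP 2B (0.0512), and Slc25a39 without CCR2-RFP 1 (adjusted p = 0.0686). Without CX3CR1-GFP 1, the lysosomal carrier Slc15a4 was called higher (0.82, adjusted p = 0.0296).

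Taking the 3 populations at once, CCR2-RFP cells stood apart most often, as they did over all genes tested. Their 3 libraries were all above the 6 others for 14 members and all below for 15. The shares were 18.3% and 10.3% of all genes tested and 26.6% and 11.6% of genes at the 5 TPM cut. The level cut fixed this in advance for Slc2a6, Slc35c2, Slc38a1, Slc5a3 and Slc9a4, which are among the 14. It did the same for Slc46a3, among those with double-negative libraries above the rest. Double-negative libraries were all above the rest for Slc18b1, Slc23a2, Slc46a3 and Slc9a9, and all below for Slc15a3, Slc36a1, Slc38a1 and Slc4a7, against 5% and 3.96% of genes tested. CX3CR1-GFP libraries were all above for Slc15a2 and Slc15a4 and all below for Slc25a24, against 2.7% and 5.64%. Replicates were tight for most members: the median coefficient of variation was 16.9%, 17.2% and 20.8% in double-negative, CCR2-RFP and CX3CR1-GFP cells. It was over 50% for 1, 7 and 9 members, among them Slc16a7, Slc15a2, Slc25a4 and Slc9a3r1 in both reporter-positive populations.

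Partner chains of carriers and related genes were read beside the members. Of 7 such genes, 2 were higher in CCR2-RFP cells than in double-negative cells, 1 lower and 4 not called. Over all genes tested 24.8% were called in this comparison (14.9% higher, 9.88% lower). Emb (embigin), a chaperone of monocarboxylate carriers such as Slc16a7, averaged 3.10 ± 1.54 TPM in double-negative cells, 45.7 ± 2.29 in CCR2-RFP cells and 3.95 ± 2.40 in CX3CR1-GFP cells (3.58 in CCR2-RFP against double-negative cells, adjusted p = 4.42e-05). Mpc1, of the mitochondrial pyruvate carrier, was higher by 1.11 (adjusted p = 0.00606). Unc93b1, which escorts endosomal Toll-like receptors, was lower by -0.51 (adjusted p = 0.0213). Among 13 genes of endosomal Toll-like receptor signalling, a pathway that Slc15a3 and Slc15a4 serve, 2 were higher and 6 lower. Tlr7 averaged 38.1 ± 2.08, 5.40 ± 1.21 and 35.0 ± 0.922 TPM in double-negative, CCR2-RFP and CX3CR1-GFP cells (-2.63 in CCR2-RFP against double-negative cells, adjusted p = 3.64e-06), and Irf5 was higher by 1.42 (adjusted p = 0.000187).

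Transporters outside the Slc names were also read. In CCR2-RFP against double-negative cells 24.8% of all genes tested were called (14.9% higher, 9.88% lower), the background for the counts that follow. Of 20 ABC transporters, which do split ATP, 3 were higher and 7 lower in CCR2-RFP against double-negative cells. The cholesterol exporters Abca1 and Abcg1 went opposite ways, from 17.9 ± 1.50 to 3.56 ± 0.386 TPM and from 0.742 ± 0.167 to 7.12 ± 1.56 TPM (adjusted p = 1.23e-05 and 3.2e-05). Of 19 ATPase pumps, 6 were higher and 3 lower, with the calcium pump Atp2a3 at 1.93 (adjusted p = 7.66e-05). Of 2 aquaporins, Aqp9, a channel for water and glycerol, was higher by 2.62 (adjusted p = 1.45e-05). Of 34 further carriers, 7 were higher and 5 lower; the organic anion transporter Slco2b1 averaged 24.9 ± 2.39, 2.77 ± 0.626 and 30.7 ± 1.34 TPM in double-negative, CCR2-RFP and CX3CR1-GFP cells (-2.79 in CCR2-RFP against double-negative cells, adjusted p = 3.39e-06).

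Enzymes that use what the members carry were read in the same way, beside the same background of 24.8% in CCR2-RFP against double-negative cells. Of 11 genes of glutamate and glutathione metabolism, 3 were higher and 2 lower in CCR2-RFP against double-negative cells: glutamine synthetase Glul fell by 2.28 on the log2 scale (adjusted p = 3.39e-06), and glutamate dehydrogenase Glud1 and glutathione peroxidase Gpx1 rose by 1.12 and 1.31 (adjusted p = 0.000111 and 0.000161). Of 11 amino acid response genes, 3 were higher and 1 lower, with the serine and folate enzymes Psat1 and Mthfd2 at 1.60 and 1.72 (adjusted p = 0.000212 and 0.000276). Of 20 genes of lysosomal amino acid sensing, 1 was higher and 4 lower, with Mitf at -0.67 (adjusted p = 0.0174). Of 4 genes of arginine and polyamine use, spermine synthase Sms was higher by 1.58 (adjusted p = 0.00147). Of 10 metal-binding genes, 1 was higher and 4 lower: Cp, Tfrc and Ftl1 were at -3.20, -2.41 and -0.69 (adjusted p = 3.33e-05, 0.000136 and 0.0038). In CX3CR1-GFP against double-negative cells 3 of these 10 were lower, against 1.61% of all genes tested. The 3 were the metallothioneins Mt1 and Mt2 at -0.92 and -1.21 (adjusted p = 0.0252 and 0.0197) and Ftl1 at -0.63 (adjusted p = 0.0381). Of 9 nucleoside enzymes, limma called 0 in CCR2-RFP against double-negative cells and 0 passed an unadjusted p of 0.05.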

How the data were processed

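RNA of 9 libraries from sorted mouse phagocytes was analysed, 3 per population. The deposited values are TPM per gene symbol. Per the submitters' processing notes, the authors used bcl2fastq 2.18, cutadapt 1.8.3 and Salmon 0.11.3 with build mm10. The annotation, like the strand setting and the way of summing transcripts to genes, is not given in the sources used here. TPM keeps no counts, so depth is unknown and the number of libraries limits precision. Populations follow titles, source names and column headings; the description field names the other reporter-positive population for those samples.

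The fit kept genes that reached 1 TPM in 3 or more libraries (10136, all 58 members among them). It ran on log2(TPM + 1) with limma 3.58.1 under R 4.3.3, with a mean per population over all 9 libraries, eBayes with trend, 3 two-sided contrasts and Benjamini-Hochberg adjustment over all genes kept; fold changes on this scale understate those of low genes. The procedure was tested on simulated data. Intervals are 95%.

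Substrate classes, gene lists and members were chosen with earlier results of these data known. Members named are the 10 called with the largest positive and negative log2 differences without overlap per comparison, up to 4 per class by F test and 2 by mean, the 6 least different at 20 TPM or more, those beside the cut, and partners of a named complex; of other lists, up to 3 called genes per comparison. Others were named after their values were seen. Of the members, 1 is counted but not reported here by name or plotted singly. Coordinates are from GENCODE M21 (GRCm38), where 9 of the 58 members share exon bases with another listed gene, on the opposite strand except for Slc5a3. The series design names 3 mice, each sorted into every population. The main fit did not pair the libraries of a sort, and the sort entered as a block only in an alternative. Deviations from population means correlated at 0.0315 to 0.205 within a sort and at -0.160 to 0.112 between sorts. Alternatives were pseudocounts of 0.1 and 5, no filter or one at 5 TPM, 3 other scalings, the sort as a replicate block, no trend, only the populations compared, and leaving out each library; leaving out sort 2A was added after seeing the data.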

Additional observations from a re-analysis of the deposited data

How the results depend on the processing

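No called difference changed sign under any of the 20 alternatives run, and no sign change was called. Among differences not called, 9, 27 and 12 members changed sign in some alternative in CCR2-RFP against double-negative, CX3CR1-GFP against double-negative and CX3CR1-GFP against CCR2-RFP cells, such as Slc25a4 and Slc9a3r1 in the first. Of 26 members called in CCR2-RFP against double-negative cells, 19 kept their call in all of them, 7 lost it in some and 7 others gained one. Of 24 called in CX3CR1-GFP against CCR2-RFP cells, 15 kept it, 9 lost it and 7 others gained one. With a replicate block for the sort, the counts higher and lower were 12 and 14 in the first comparison, 1 and 0 in CX3CR1-GFP against double-negative cells, and 11 and 11 in the last; apart from Slc3a2 and Slc46a3 in the last, the block changed no call. Leaving out each library in turn gave 9 to 14 higher and 12 to 15 lower in CCR2-RFP against double-negative cells, 0 to 1 and 0 to 1 in CX3CR1-GFP against double-negative cells, and 8 to 13 and 10 to 11 in CX3CR1-GFP against CCR2-RFP cells, where the 8 came without CCR2-RFP 2A. With only the 2 populations compared, CX3CR1-GFP against double-negative cells had 0 higher and 1 lower. Without all sort 2A libraries it had 0 higher, and 8 members were higher in CX3CR1-GFP than in CCR2-RFP cells, against 20 with TPM rescaled without Siglece, Rn18s, mitochondrial and ribosomal protein genes; the smaller sets of libraries hold fewer samples, and otherwise the cause was not tested. With no filter, 25666 genes were tested and 1233 rose and 780 fell in CCR2-RFP against double-negative cells.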
